A study of Homo sapiens with 18 samples.

Results

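The DNA replication genes described here are 38 genes taken from a list of names, 1 row each in the deposited RNA table. The list was set by gene name, but with earlier results of these data known, so the choice was not blind to them. They are 38 of the 14177 genes in that table, and all 38 were among the 13697 genes with more than 1 CPM (reads scaled to a common library total) in at least 3 of the 6 RNA libraries, which were the genes tested. The list holds subunits and loaders of the replicative helicase, the sliding clamp and its loader, the replicative polymerases and primase, proteins of lagging-strand joining, enzymes of nucleotide supply and proteins of the fork-protection complex.

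The study worked in HEK293T, a human embryonic kidney cell line, and removed UBR7 with CRISPR-Cas9. UBR7 is a PHD-finger protein that the series title calls a chaperone of histone H3. RNA was sequenced from 3 parental and 3 UBR7KO libraries, open chromatin (ATAC-seq) from 2 parental and 2 UBR7KO libraries, and GFP-UBR7 binding by ChIP from 1 library, with 1 input, of cells edited to tag UBR7 with GFP at its endogenous locus. The remaining 6 of the 18 samples, CUT&RUN for H3K4me3, are not analysed here. Parental library 1 and UBR7KO library KO1-1 share a code in their labels that reads as a date, and parental 2 and KO1-2 share another; they are called dated pairs 1 and 2. Parental 3 and KO2-1 carry no such code and are called the undated pair. KO1 and KO2 are the labels' names of the knockout lines, so line KO1 has 2 RNA libraries and line KO2 has 1. The labels' file descriptions give both ATAC libraries of the UBR7KO group the code of KO2-1. Nothing in the labels says whether libraries came from separate cultures, so the p-values measure the spread between these libraries, which may be technical. All groups are the same cell line in the same growth medium with no drug treatment.

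Replication begins when the origin recognition complex, with CDC6 and CDT1, loads the MCM helicase on DNA. CDC45 and the GINS complex then join the helicase and activate it, polymerase alpha with primase starts each strand, and PCNA, loaded by replication factor C, holds polymerases delta and epsilon to the template. Many of these genes are classic targets of E2F transcription factors, which raise them as cells enter S phase, and CCAAT boxes bound by NF-Y are common in promoters of cell-cycle genes.

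The promoters of 33 of the 38 genes were in the RefSeq promoter table of build GRCh38.p14, which gives 250 bases before and 50 bases after each start; RPA3, MCM4, GINS4, MCM5 and RPA2 were not. The 6 sequences here were chosen because their genes carry the RNA or binding results described further on, or the most matches. They are the 250 bases before the start, 5′ to 3′ on the gene's strand, with capitals for matches on either strand to the E2F-type words TTTCGCGC, TTTGGCGC, TTTCCCGC and TTTGCCGC or to CCAAT. MCM7 has 3 windows in the promoter table and PCNA has 2, and for each a window with the most matches was picked. The MCM6 window lies at chr2:135876444-135876693 on the minus strand, the MCM7 window at chr7:100101398-100101647 (minus), the POLE window at chr12:132687343-132687592 (minus), the PCNA window at chr20:5126623-5126872 (minus), the RFC3 window at chr13:33817899-33818148 (plus) and the LIG1 window at chr19:48170345-48170594 (minus).
MCM6: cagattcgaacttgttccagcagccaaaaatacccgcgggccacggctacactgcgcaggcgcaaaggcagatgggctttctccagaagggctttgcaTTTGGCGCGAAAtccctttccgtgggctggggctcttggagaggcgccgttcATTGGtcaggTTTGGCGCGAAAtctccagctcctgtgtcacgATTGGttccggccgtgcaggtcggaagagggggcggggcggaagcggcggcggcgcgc
MCM7: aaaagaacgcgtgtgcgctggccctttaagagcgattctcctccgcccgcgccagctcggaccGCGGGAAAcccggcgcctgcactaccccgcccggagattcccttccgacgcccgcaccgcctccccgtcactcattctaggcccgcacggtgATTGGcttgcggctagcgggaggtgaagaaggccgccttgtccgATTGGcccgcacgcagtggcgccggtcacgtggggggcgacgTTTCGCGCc
POLE: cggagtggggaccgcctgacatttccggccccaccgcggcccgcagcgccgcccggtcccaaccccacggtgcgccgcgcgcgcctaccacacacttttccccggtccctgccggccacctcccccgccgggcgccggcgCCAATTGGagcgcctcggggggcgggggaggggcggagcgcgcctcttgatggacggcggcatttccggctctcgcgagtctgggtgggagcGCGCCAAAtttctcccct
PCNA: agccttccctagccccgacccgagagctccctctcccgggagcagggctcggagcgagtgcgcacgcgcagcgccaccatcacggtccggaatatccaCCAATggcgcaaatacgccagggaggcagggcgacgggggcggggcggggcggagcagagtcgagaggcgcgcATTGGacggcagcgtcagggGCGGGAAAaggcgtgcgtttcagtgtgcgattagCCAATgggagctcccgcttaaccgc
RFC3: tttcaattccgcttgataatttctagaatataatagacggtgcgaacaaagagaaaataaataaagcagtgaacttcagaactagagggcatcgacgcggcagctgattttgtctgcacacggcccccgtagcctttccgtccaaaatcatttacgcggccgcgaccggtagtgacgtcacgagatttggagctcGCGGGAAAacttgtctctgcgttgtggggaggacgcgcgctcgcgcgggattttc
LIG1: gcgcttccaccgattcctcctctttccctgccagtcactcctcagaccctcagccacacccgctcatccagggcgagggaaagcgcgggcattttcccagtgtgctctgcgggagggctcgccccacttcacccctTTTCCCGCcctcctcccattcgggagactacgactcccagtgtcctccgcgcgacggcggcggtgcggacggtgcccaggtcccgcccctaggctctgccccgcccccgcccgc

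An E2F-type word was found in 18 of the 33 promoters (54.5%) over the 300 bases, against 3.99% of the 27305 genes in the promoter table and 6.80% of the 9641 tested genes it holds. Within the 250 bases before the start, 13 of 33 (39.4%) had a match, against 5.75% of tested genes. CCAAT stood in 21 of 33 promoters (63.6%), against 43.6% of tested genes, where a gene with several starts counts as holding a word when any of its windows does. In 10 genes, beside 2.66% of tested genes, both kinds of word stood in the same window, and TIPIN held them in separate windows. TTTCCCGC was found in 10 promoters, TTTGGCGC in 7, TTTCGCGC in 4 and TTTGCCGC in 0. These are matches of letters in windows of equal length, given as a description, and they show no binding.

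MCM6, a subunit of the helicase ring, had the most E2F-type matches, 4. They form the same pair 2 times: in TTTGGCGCGAAA a TTTGGCGC read on the gene's strand overlaps a TTTCGCGC read on the other. TIPIN, MCM3 and MCM7 each had 2 E2F-type matches, so 4 members had 2 or more. PCNA, the sliding clamp, held 1 TTTCCCGC on the other strand and CCAAT words on both strands. In POLE, the catalytic subunit of polymerase epsilon, CCAATTGG reads as CCAAT in both directions and was counted as 2 overlapping matches. RFC3 and LIG1 each held 1 TTTCCCGC and no CCAAT. CDC45, the helicase cofactor, has 3 windows in the table, which together held CCAAT at 7 positions and no E2F-type word. Positions are counted from each window's own start, so where windows overlap the same word counts more than once. Of the 24 E2F-type matches in members, 18 began within 100 bases before the start or after it, and 5 members (RFC2, RFC4, POLD1, PRIM2 and FEN1) held neither kind of word.

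**Figure D1:**
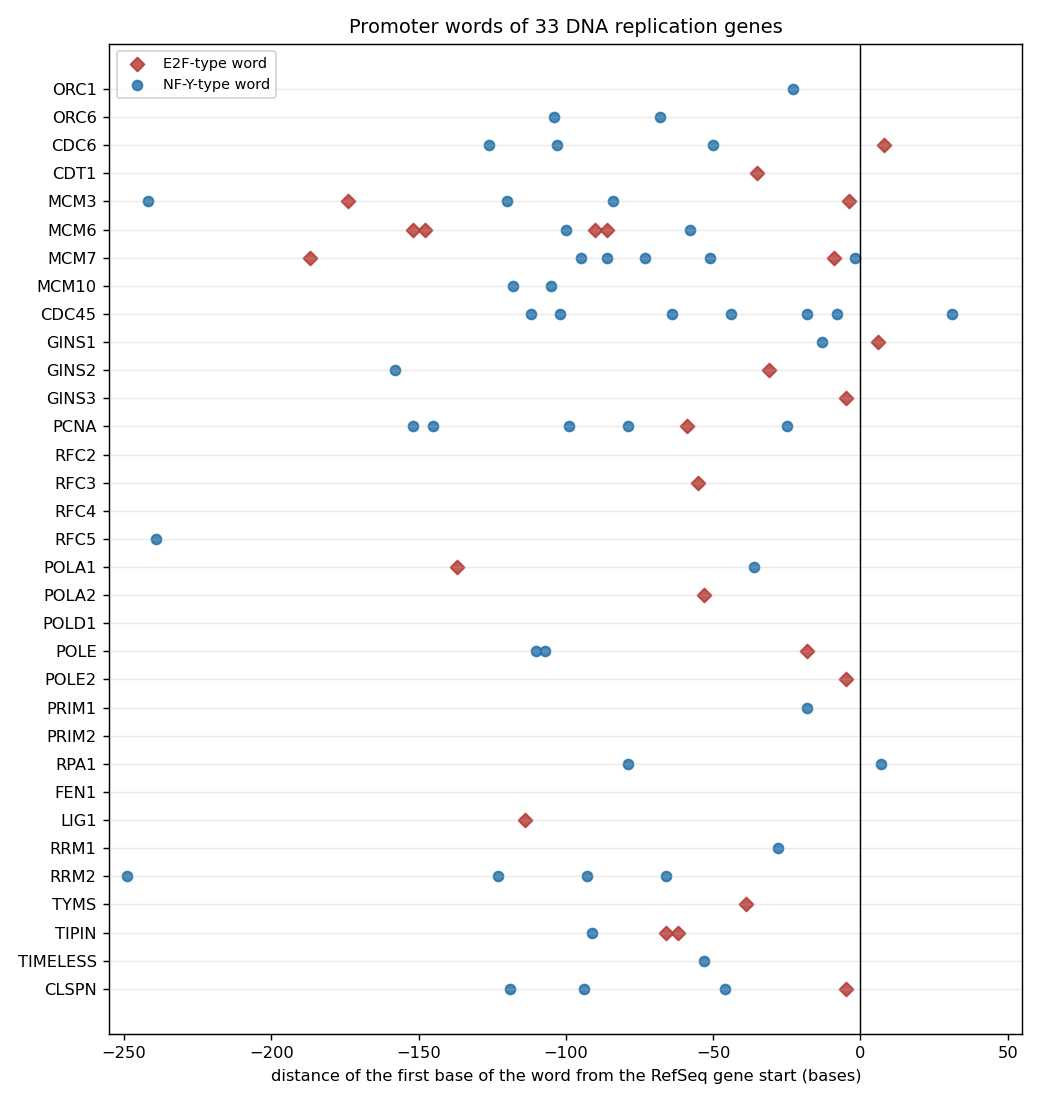
Position of each E2F-type word (diamonds) and NF-Y-type CCAAT word (circles) in the promoters of 33 DNA replication genes, as the distance in bases of its first base from the RefSeq start. For genes with several starts the windows are overlaid, so the same word can show at several positions. Most diamonds lie within 100 bases before the start, MCM6 has 4 and RFC2, RFC4, POLD1, PRIM2 and FEN1 have no mark.

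The targeted gene was checked first. UBR7 RNA was 55.0, 62.2 and 62.2 CPM in parental 1, 2 and 3, 27.0 and 26.3 CPM in KO1-1 and KO1-2, and 64.5 CPM in the library labelled KO2-1. KO1 thus stood at 45.5% of the parental libraries of the same dates. The library labelled KO2-1 stood above all 3 parental libraries, so its UBR7 RNA was not reduced. RNA does not measure the protein or show the edit, so whether line KO2 lacks UBR7 was not tested here. In the 4 dated libraries UBR7 differed by -1.10 in log2 CPM + 1 (SE 0.20; adjusted p = 1.00 by limma across 13697 genes, and 1.56e-05 when the pairs enter as a block). Over all 6 libraries an exact two-sided permutation test gave p = 0.4, where 0.1 is the smallest p that 3 against 3 allows. For this reason the KO1 comparison and the 6-library comparison are given separately throughout.

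Depth was even. The 6 RNA libraries held 22153291 to 29811908 reads counted to genes, recovered from the CPM steps, and a member had between 449 and 13986 reads in a library. The summed CPM of the 38 members was 5037, 4704 and 4759 in the parental libraries and 5000, 4663 and 4784 in KO1-1, KO1-2 and the library labelled KO2-1, so the groups overlapped. The sum of 8 proliferation genes ranged from 1222 to 1636 CPM in parental and from 1197 to 1845 CPM in UBR7KO libraries. Of 5 fibroblast genes 3 were in the table, summing to 14.2 to 21.3 CPM in parental and 7.35 to 15.0 CPM in UBR7KO libraries; of 5 keratinocyte genes 1 was, at no more than 3.48 CPM, and of 5 blood genes 2 were, summing to no more than 3.37 CPM. The defining markers DCN, POSTN, KRT5, KRT14, PTPRC, CD3E and HBB were not among the table's rows.

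No replication gene was called between UBR7KO and parental cells in the limma tests on CPM as deposited. Between the 4 dated libraries 0 of 38 members passed limma's adjusted p of 0.05, beside 0% of the 13697 genes, and at an unadjusted p under 0.05 the members still counted 0, against 116 higher and 102 lower genes overall. When the pairs entered as a block, 491 genes were called (3.58%), 305 higher and 186 lower in KO1, and again 0 members. Unadjusted, that blocked limma test had 1471 higher and 775 lower genes at p under 0.05. Among them were 2 members, RFC3 and RFC4, both lower. Over all 6 libraries 0 members and 0% of genes were called, with or without the block. At an unadjusted p under 0.05 that 6-library limma test counted 23 higher and 47 lower genes, or 473 and 282 with the block, and 0 members either way. DESeq2 called 24 genes in the dated and 7 in the 6-library comparison, none of them a member. In the authors' deposited table all 38 members had an adjusted p of 1, and their log2 changes ran from -0.25 (RFC3) to 0.22 (POLE).

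The intervals bound the change to less than 2-fold for most members. In the 6-library fit the 95% interval of the log2 change in CPM + 1 stayed within 1 either way for all 38 members. In the dated fit it did so for 32, and for all 38 when blocked by pair. The share of all tested genes with such intervals was not computed. The 6 members with wider dated intervals were CDT1, GINS3, RFC3, RFC4, RPA3 and CLSPN. No member moved by more than 1 (log2) in any single pair, beside 3.18% of tested genes. That share is small, so a count of 0 among 38 genes does not set the members apart. The median dated change of the members was -0.03, with 16 positive and 22 negative, beside 0.03 over all tested genes; the 6-library medians were -0.01 and 0.01. The 18 members with an E2F-type word had a median dated change of -0.06 and the 15 without had 0.04, both given as descriptions.

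**Figure D2:**
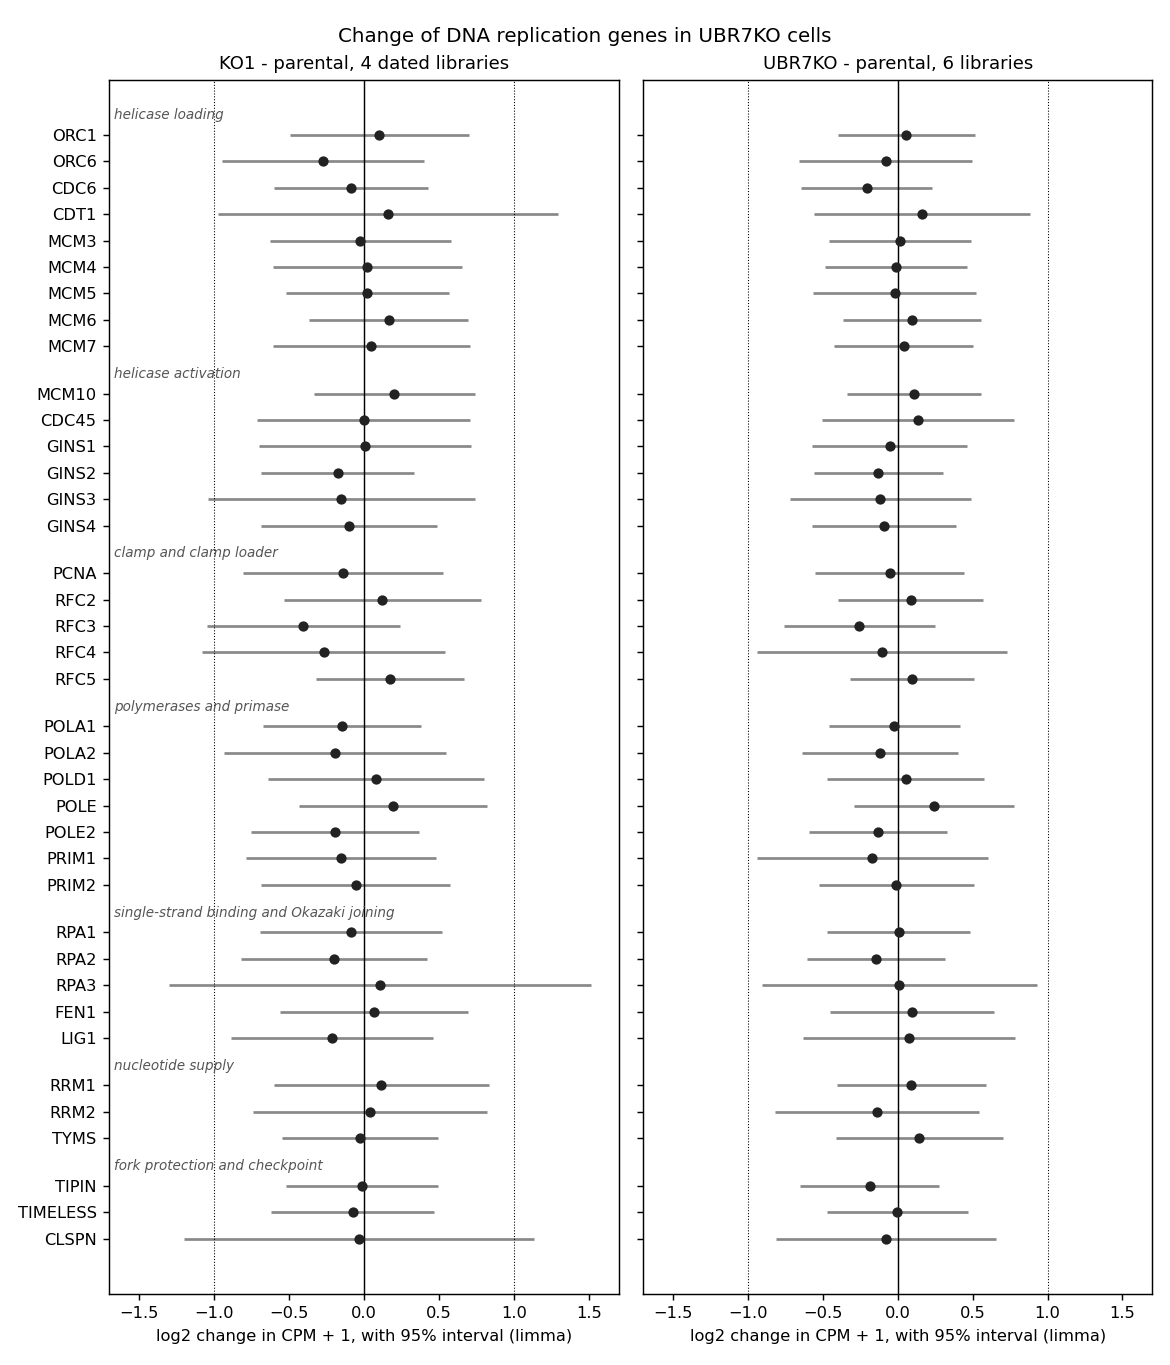
Log2 change in CPM + 1 of each of the 38 genes with its 95% limma interval, KO1 minus parental in the 4 dated libraries (left) and UBR7KO minus parental in all 6 (right), with dotted lines at 1 either way. Every interval on both sides crosses 0, and on the right all 38 stay between the dotted lines.

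Coordinates of genes and peaks are those of the deposited files; the submitters' notes name hg19 and hg38 without saying which file uses which, and only 1 of the 38 starts lies within 1 kb of its GRCh38 start, so they are not comparable with the promoter windows. The counting is not stated to use strand, and 10 members (MCM7, GINS2, RFC4, RFC5, POLE, PRIM1, RPA1, RPA3, FEN1 and TYMS) overlap a gene on the other strand, with which they may share reads; POLA1, POLE, PRIM1 and FEN1 overlap a gene on the same strand. A regional median, given beside some genes, is the median log2 change of the tested genes in the same 10-Mb region in the same pair. Where a region held fewer than 10 tested genes, the median of the whole chromosome was used.

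The genes of helicase loading number 9: the origin recognition subunits ORC1 and ORC6, the loaders CDC6 and CDT1, and the helicase subunits MCM3 to MCM7. ORC6, on chromosome 16 (46723555 to 46732306), had the largest dated change of the group. It read 66.8, 42.8 and 34.7 CPM in parental 1, 2 and 3, 43.7 and 44.4 CPM in KO1-1 and KO1-2, and 43.2 CPM in the library labelled KO2-1. Parental 1 stood above every other library and parental 3 below, so the UBR7KO values lay inside the parental range. The dated change was -0.28 (SE 0.27, limma adjusted p = 1.00), made up of -0.60 in dated pair 1 and 0.05 in dated pair 2. It was 0.04 without parental 1. Changes with a library left out, here and below, come from fits without pair terms. In them 1 library lacks its partner, so the level of its pair enters the change.

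CDC6, the loader that recruits the helicase with CDT1, was the only member whose UBR7KO and parental libraries did not overlap, beside 2.48% of tested genes in either direction; it is named for that after its values were seen. Its CPM were 134, 124.5 and 135 in the parental libraries and 119, 124.1 and 99.0 in KO1-1, KO1-2 and the library labelled KO2-1. Parental 2, at 124.5 CPM, and KO1-2, at 124.1 CPM, nearly met, so the separation is narrow. In the undated pair CDC6 changed by -0.45 (log2), and the median change of the tested genes in its 10-Mb region of chromosome 17 in the same pair was also -0.45. In the dated pairs it changed by -0.17 and -0.00, beside regional medians of 0.06 and 0.15.

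CDT1, the other loader, was ordered by pair, with 131 and 164 CPM in dated pair 1, 75.7 and 75.6 CPM in dated pair 2, and 88.6 and 99.9 CPM in the undated pair (parental first). MCM4 read 389, 424 and 480 CPM in parental and 406, 419 and 455 CPM in UBR7KO libraries. MCM7 read 425, 417 and 438 CPM in parental and 477, 397 and 445 CPM in UBR7KO libraries. In both helicase subunits the groups overlapped, and the same held for MCM3 (284 to 353 CPM over the 6 libraries), MCM5 (159 to 241 CPM), MCM6 (135 to 179 CPM) and ORC1 (44.7 to 61.8 CPM).

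Helicase activation is covered by 6 genes: MCM10, CDC45 and the 4 GINS subunits. MCM10, an activation factor on chromosome 10, read 163, 153 and 152 CPM in parental and 180, 182 and 144 CPM in UBR7KO libraries. Both KO1 libraries stood above all parental ones, and the library labelled KO2-1 stood lowest of all 6. Its dated change, the largest of the group, was 0.20 (SE 0.22, limma adjusted p = 1.00). The pair changes of 0.15 and 0.26 lay beside regional medians of 0.19 and 0.26, so MCM10 moved about as much as its regional median. CDC45 read 117, 151 and 79.3 CPM in parental and 110, 160 and 105 CPM in UBR7KO libraries, again ordered by pair. GINS2, GINS3 and GINS4 were lower in UBR7KO in all 3 pairs, by at most 0.24 (log2), and none passed the test. GINS1 ranged from 59.0 to 85.4 CPM.

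RFC3 came closest to a call. It is a small subunit of replication factor C, the clamp loader, on chromosome 13 (34392186 to 34540695). It read 93.1, 69.3 and 75.5 CPM in parental libraries, 69.5 and 52.4 CPM in KO1-1 and KO1-2, and 78.2 CPM in the library labelled KO2-1. Within each dated pair KO1 was lower, by 0.42 and 0.40 (log2), and in the undated pair the UBR7KO library was slightly higher, by 0.05. The dated change was -0.41 (SE 0.26, limma adjusted p = 1.00; SE 0.12 and adjusted p = 0.0599 when blocked by pair). With a library left out it ran from -0.20 (without parental 1) and -0.21 (without KO1-2) to -0.61 (without KO1-1) and -0.62 (without parental 2). It passed with the block under TMM factors (limma adjusted p = 0.0477) and in edgeR's quasi-likelihood test (adjusted p = 0.0450) and not in DESeq2 (adjusted p = 0.215), all 3 run after the data were seen. The regional medians in the dated pairs were -0.13 and 0.09, so RFC3 fell further than the regional median in both. RFC3 also had the lowest 6-library change of the 38 members, -0.25 (SE 0.22, limma adjusted p = 1.00), which was -0.09 without KO1-2, -0.14 without parental 1 and -0.38 without the library labelled KO2-1.

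The other 4 genes of the clamp and its loader did not pass. RFC4 read 87.5, 109 and 45.3 CPM in parental and 61.2, 107 and 53.2 CPM in UBR7KO libraries, with changes of -0.51, -0.03 and 0.23 in the 3 pairs. PCNA, the clamp itself, read 348, 258 and 240.0 CPM in parental and 276, 267 and 262 CPM in UBR7KO libraries. Parental 1 stood above the other 5 libraries, which lay within 240.0 to 276 CPM. RFC2 was higher in UBR7KO in all 3 pairs, by 0.02 to 0.15 (log2), and RFC5 ranged from 81.2 to 98.2 CPM over the 6 libraries.

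Among the 7 polymerase and primase genes, POLE had the highest 6-library change of all members. It read 156, 132 and 104 CPM in parental and 189, 144 and 132 CPM in UBR7KO libraries. Each UBR7KO library stood above its own parental partner, but the groups overlapped because the pairs differ in level. The 6-library change was 0.24 (SE 0.24, limma adjusted p = 1.00), and the authors' deposited table gives 0.22. It was 0.09 without parental 3 or without KO1-1, and 0.38 without parental 1. POLA2, the accessory subunit of polymerase alpha, had the largest dated change of the group, -0.20 (SE 0.30, limma adjusted p = 1.00), which became 0.15 without parental 1. Its CPM were 114, 70.4 and 86.4 in parental and 86.5, 70.3 and 88.6 in UBR7KO libraries, so parental 1 alone stood apart.

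PRIM1, the catalytic subunit of primase, was ordered by pair and not by genotype, with 86.9 and 71.6 CPM in dated pair 1, 61.3 and 59.7 CPM in dated pair 2 and 40.2 and 35.0 CPM in the undated pair. POLA1 ranged from 120 to 149 CPM over the 6 libraries, POLD1 from 76.6 to 115 CPM, POLE2 from 24.4 to 31.1 CPM and PRIM2 from 26.7 to 39.1 CPM. In none of these 4 genes were the groups separate.

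The genes of single-strand binding and lagging-strand joining number 5. LIG1, DNA ligase 1, seals the fragments of the lagging strand and lies on chromosome 19 (48618702 to 48673860, minus strand). It read 96.3, 64.3 and 38.3 CPM in parental 1, 2 and 3, and 74.3, 61.8 and 61.1 CPM in KO1-1, KO1-2 and the library labelled KO2-1. The parental libraries spread over 2.51 times and the UBR7KO libraries lay inside their range. LIG1 was lower in KO1 in both dated pairs (-0.37 and -0.06, log2) and higher in the undated pair (0.66). Its dated change, the largest of the group, was -0.21 (SE 0.27, limma adjusted p = 1.00), and 0.08 without parental 1. From the reads alone the undated pair differed by 0.67 (95% counting interval 0.56 to 0.78), which compares 2 libraries and not 2 genotypes. Its regional median in that pair was 0.02.

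A test of whether the undated pair's change differed from that of the KO1 pairs called 689 genes (5.03%), 234 of them higher (1.71%). The KO2 side of this test is 1 pair, so its 1 residual degree of freedom, and with it the spread behind the p-values, comes from the 2 KO1 pairs; the undated pair is assumed to vary like them. LIG1 was the only member called, with a difference of 0.87 (SE 0.21, limma adjusted p = 0.0153; edgeR quasi-likelihood, which called 5.4% of genes, gave 0.94 and adjusted p = 0.0104). The test takes each UBR7KO library against its own parental partner, so the knockout line, the pair and the level of parental 3 cannot be told apart. Without the pair terms the difference was -0.15 (limma adjusted p = 0.942). At an unadjusted p under 0.05 the same limma test counted 5 members higher and 2 lower, beside 862 higher and 1470 lower of the 13697 genes.

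FEN1, the flap nuclease of lagging-strand processing, read 99.7, 134 and 150 CPM in parental and 110, 132 and 167 CPM in UBR7KO libraries. RPA3, the smallest subunit of the single-strand binding complex RPA, read 51.8 and 52.4 CPM in dated pair 1, 20.3 and 23.3 CPM in dated pair 2 and 27.4 and 24.0 CPM in the undated pair. Partners within a pair were close and the pairs far apart, and the highest library held 2.59 times the lowest, the widest range of the 38. RPA1 ranged from 98.5 to 134 CPM and RPA2 from 128 to 183 CPM, with overlapping groups.

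Nucleotide supply is covered by both subunits of ribonucleotide reductase, RRM1 and RRM2, and thymidylate synthase, TYMS. RRM1 read 289.5, 223 and 246 CPM in parental and 319, 238 and 254 CPM in UBR7KO libraries. It was higher in UBR7KO in each pair, by 0.04 to 0.14 (log2), and its dated change was 0.12 (SE 0.29, limma adjusted p = 1.00). The change read -0.07 without parental 2 and -0.10 without KO1-1, in fits where 1 library lacks its partner and no pair terms enter. RRM2, the subunit that rises in S phase, read 111, 183 and 248.5 CPM in parental and 134, 161 and 177 CPM in UBR7KO libraries. Its pair changes were 0.27, -0.19 and -0.49, with a regional median of -0.34 in the undated pair. TYMS read between 28.6 and 33.6 CPM in 5 libraries and 47.6 CPM in the library labelled KO2-1.

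The fork-protection genes TIMELESS, TIPIN and CLSPN encode a complex that couples the helicase to the polymerases and helps activate the checkpoint kinase CHEK1. TIMELESS had the largest dated change of the 3, -0.08 (SE 0.22, limma adjusted p = 1.00), from 148, 131 and 106 CPM in parental and 141, 124 and 117 CPM in UBR7KO libraries. Its sign turned without parental 1 (0.0072) and without KO1-2 (0.015). TIPIN read 45.3, 42.0 and 56.9 CPM in parental and 40.5, 45.8 and 39.2 CPM in UBR7KO libraries. CLSPN read 83.8 and 79.0 CPM in dated pair 1, 161 and 163 CPM in dated pair 2 and 126 and 113 CPM in the undated pair.

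**Figure D3:**
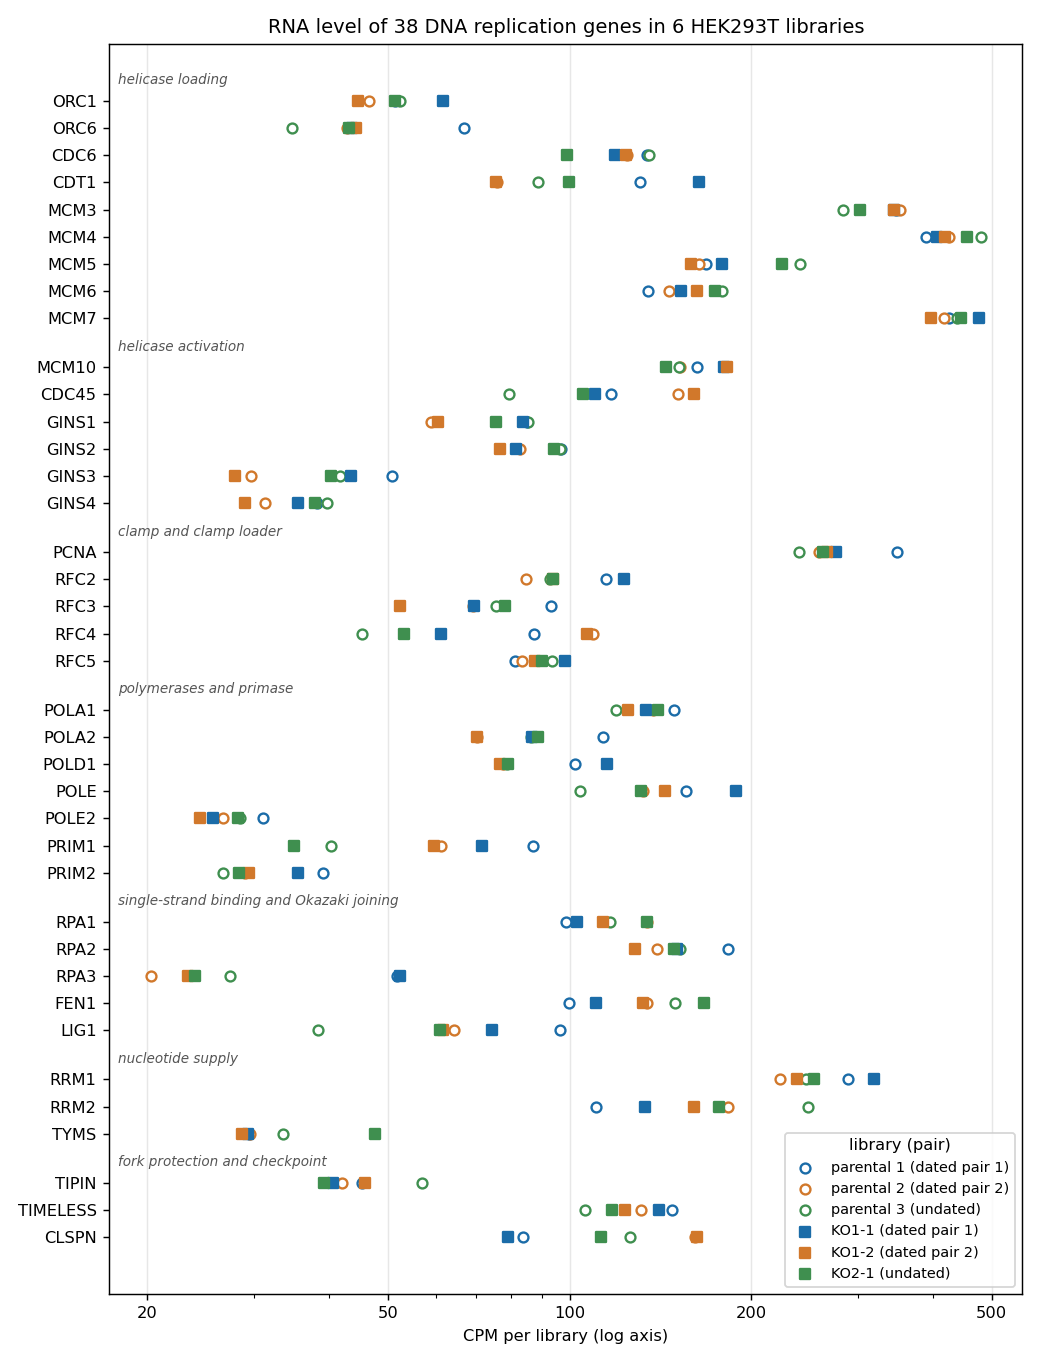
CPM of each gene in each of the 6 RNA libraries on a log axis, with open circles for parental and filled squares for UBR7KO libraries and a colour for each pair. Symbols of the same colour sit together for RPA3, CLSPN, PRIM1 and CDT1, and open and filled symbols overlap for every gene other than CDC6.

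Members kept a direction of change across the 3 pairs about as often as tested genes in general. RFC2, POLE and RRM1 were higher in UBR7KO in all 3 pairs (3 of 38, beside 15.5% of tested genes). CDC6, GINS2, GINS3, GINS4, POLE2, PRIM1 and RPA2 were lower in all 3 (7 of 38, beside 11.5%). Together 10 of 38 members kept a direction, beside 27% of tested genes. These 10 were named after their values were seen, and none was called.

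Levels differed between the pairs. A limma F test of the pair terms beside genotype, added after the data were seen, called 14 of 38 members, beside 49.2% of tested genes and 32 of 64 other replication and S-phase genes. With TMM factors it called 15 members beside 46% of genes, and with each gene centred on its 10-Mb region 16 beside 44.5%. The TMM factors of the 2 libraries of dated pair 1 were 1.10 and 1.10, against 0.963 and 1.01 in dated pair 2 and 0.928 and 0.918 in the undated pair. Among the 14 members, 8 were highest in dated pair 1, 3 in dated pair 2 and 3 in the undated pair, so no single pair was high throughout. The calls held under all 3 scalings for 11 members, and RFC2, POLD1 and POLE lost theirs with TMM factors. Adjusted p by limma was 0.00171 for RPA3, 0.00210 for PRIM1, 0.00228 for CLSPN, 0.00322 for CDT1 and 0.00484 for RFC4. The mean CPM of the highest pair was 2.39 times that of the lowest for RPA3, 2.20 times for RFC4, 2.11 times for PRIM1, 1.99 times for CLSPN and 1.94 times for CDT1. What differed between the pairs besides date code and knockout line is not given in the sources used here.

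**Figure D4:**
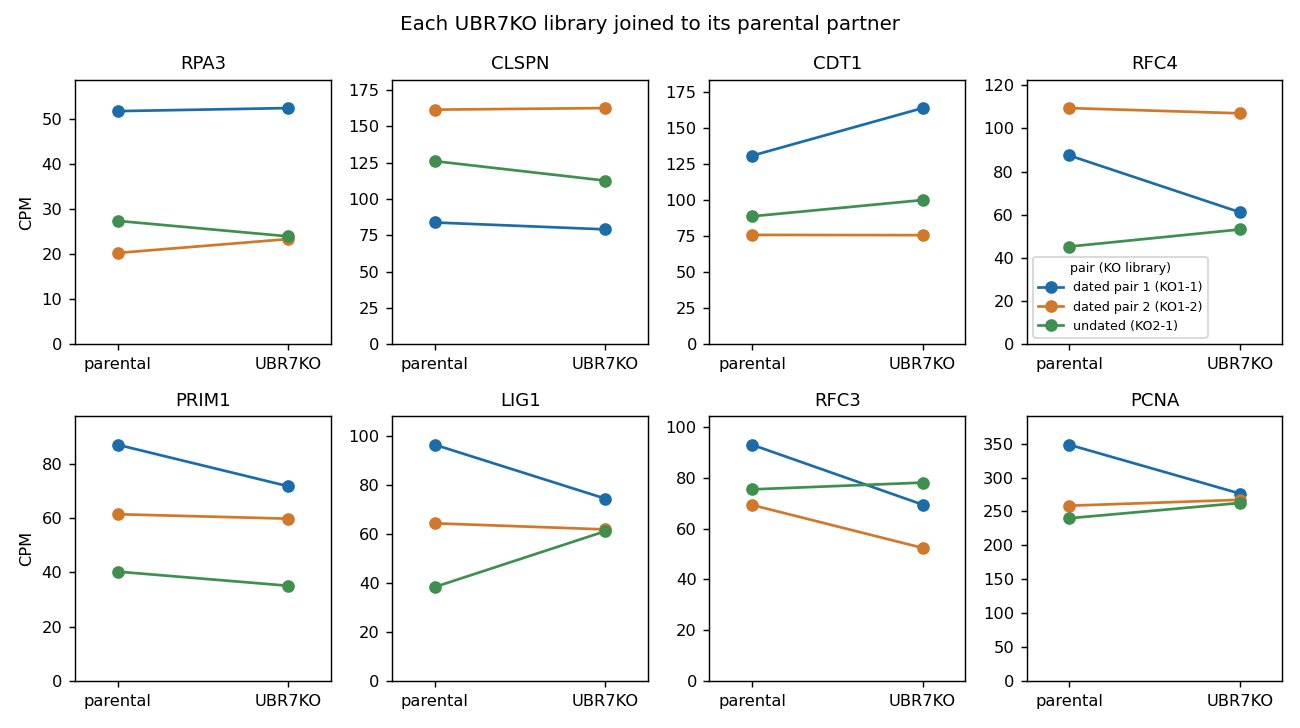
CPM of 8 genes with each UBR7KO library joined by a line to the parental library of the same pair, from 0 on each axis. For RPA3, CLSPN, CDT1, RFC4 and PRIM1 the lines lie at different heights, for LIG1 the undated pair rises from 38.3 to 61.1 CPM, and for RFC3 both dated lines fall.

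Beyond the 38 members, 64 further genes of replication licensing, fork function, nucleotide supply and E2F control were examined as a fixed list, all tested. That list too was drawn up with earlier results of these data known. In the dated libraries 0 of 64 passed, and when blocked by pair 3 fell and 0 rose, beside 3.58% of tested genes. CDC7, the kinase that activates the loaded helicase, read 181 and 174 CPM in the dated parental libraries and 98.6 and 142 CPM in KO1. Its blocked limma estimate was -0.58 (log2; SE 0.13, adjusted p = 0.0170). POLD3, a subunit of polymerase delta, read 73.3 and 64.5 CPM in parental and 45.6 and 50.0 CPM in KO1, a change of -0.52 (SE 0.13, limma adjusted p = 0.0210 with the block). RAD17, which loads the checkpoint clamp, read 60.1 and 84.4 CPM in parental and 40.7 and 58.9 CPM in KO1, a change of -0.53 (SE 0.12, limma adjusted p = 0.0141 with the block). Over the 6 libraries 0 of these 64 passed with or without the block. In the test of the undated against the KO1 pairs, POLD3 (0.94) and E2F2 (1.00) were called higher and TOP2A (-0.83) lower.

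ATAC-seq peaks, many of them weak, were listed at most of the members' starts in both genotypes. The UBR7KO libraries here carry the code of KO2-1, the RNA library with UBR7 at the parental level. Within 1 kb of the start, peaks were listed for 26 of 38 members in parental 1, 35 in parental 2, 34 in UBR7KO 1 and 35 in UBR7KO 2. The median −log10 q of these peaks was only 1.13, 0.969, 1.07 and 2.11 in that order. Over all tested genes with a peak it was 1.07, 1.47, 1.26 and 2.11. The shares of all tested genes with a peak were 58.6%, 84.2%, 74.3% and 86.5%, and the lists held 10507, 38529, 15310 and 45920 peaks, so the shares were lowest in the 2 shortest lists. A peak stood in all 4 libraries at 26 members (68.4%, beside 55.9% of genes). At 8 members (MCM5, GINS1, GINS2, POLE2, PRIM1, PRIM2, RPA1 and FEN1) it was missing only from parental 1, the shortest list, which was so for 21.1% of members and 17.2% of genes. CDT1 had a peak in parental 2 and UBR7KO 2 only. With 2 libraries a group and lists of such unequal length, presence of a peak gives no test between genotypes.

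The widths of peaks at single members varied between libraries of the same genotype. At MCM6 the strongest peak by −log10 q was 536 and 916 bases wide in the parental libraries and 782 and 908 bases in the UBR7KO libraries. At POLE it was 693, 1216, 1055 and 1111 bases in the same order, and at RFC3 it was 163, 485, 588 and 666 bases. At CDC6 it was 228, 391, 270 and 506 bases. Parental 1 had the narrowest peak at each of these 4 genes. No ATAC peak was listed in any library within 1 kb of the starts used for 3 members, GINS3, RFC5 and RPA3, beside 12.0% of tested genes. For these 3 the start was taken from the edge of the gene in the RNA table, and peaks lay elsewhere inside the span in 3 of the 4 libraries for GINS3 and in all 4 for RFC5 and RPA3. The GINS3 span is 111 kb beside a RefSeq gene length of 13.7 kb. The edge used may thus lie far from its RefSeq start, and the lack of a peak there does not describe its promoter.

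GFP-UBR7 ChIP peaks lay within 1 kb of 9 of the 38 starts (23.7%), beside 26.1% of tested genes. POLE had the highest score by the authors' peak caller, 201, at 133263904 to 133264535 on chromosome 12, where the list's median score is 64.7 and its rank was 156 of 5895 peaks. CDC45 followed with 110 (19466547 to 19466897 on chromosome 22). The others were MCM7 (78.3), RRM2 (68.9), CDC6 (63.7), RPA2 (61.4), PCNA (59.0), LIG1 (53.0) and CLSPN (51.7), of which MCM7 and RRM2 scored above the median. At 5 of the 9 another tested gene starts within 1 kb: AP4M1 at MCM7, UFD1L at CDC45, CDS2 at PCNA, PXMP2 at POLE and C19orf68 at LIG1. The peaks at CDC45, POLE, LIG1 and CLSPN overlapped ATAC peaks in all 4 libraries, and the peak at RPA2 overlapped none. With 1 ChIP library there is no replicate of these peaks. The count was 5 with a window of 250 bases and 4 for the higher-scoring peaks alone.

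**Figure D5:**
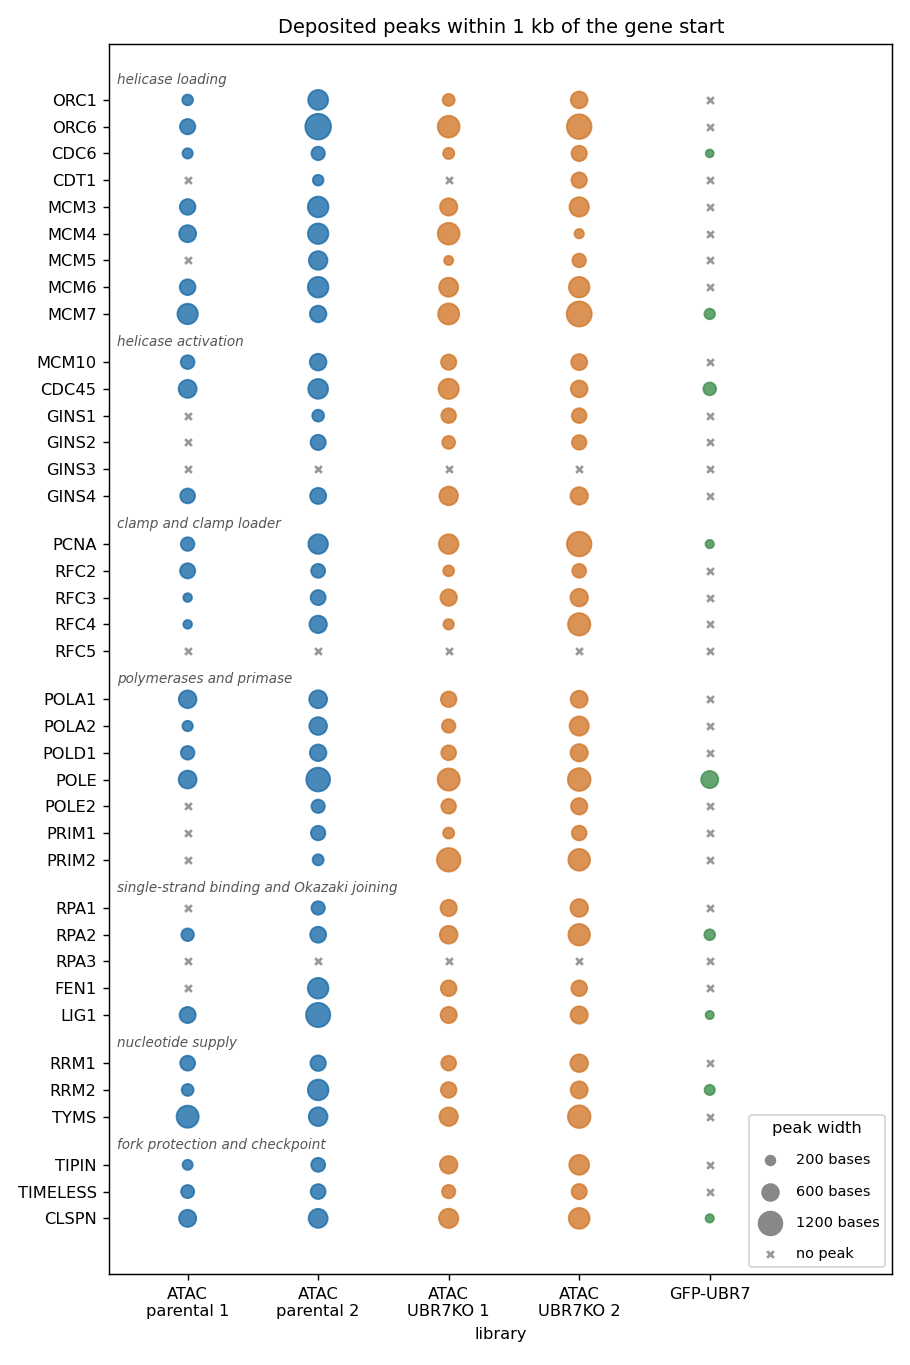
Presence and width of the deposited peak of highest −log10 q or score within 1 kb of each gene's start, in the 4 ATAC-seq libraries and the GFP-UBR7 ChIP library, with circle area set by width and a cross for no peak. Parental 1 has 12 crosses, GINS3, RFC5 and RPA3 have crosses in every column, and 9 genes have a circle in the last column.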

How the data were processed

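Per the file headers and values, the RNA table gives CPM per gene and library, made by the authors from reads counted to genes; TopHat2 (2.1.0), HTSeq (0.6.1) and edgeR stand in the submitters' processing notes with no role given. Every CPM value was a whole multiple of 1 read (100% of values, tolerance 0.001 reads), so whole reads were recovered for the count tests. The deposited log2 changes and p-values of the authors' edgeR comparison were only copied. Each deposited ATAC peak carries a −log10 q from MACS2, called per library per the file headers, and each GFP-UBR7 peak a score from the authors' peak caller, whose scale is not given in the sources used here.

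Differences were tested with limma 3.58.1 (trend and robust) on log2(CPM + 1), for genes above 1 CPM in at least 3 libraries, with Benjamini-Hochberg adjustment over all 13697 genes and a call at 0.05. A fold change on this scale understates low genes. The main designs had no block. The shared date codes pair the libraries: deviations from the group means correlated at 0.76, 0.74 and 0.63 within pairs and at -0.44 to -0.25 between them. Within each group the deviations cancel out, so matching dated pairs by arithmetic raise the undated value and lower the values between pairs. The 0.63 therefore cannot test whether the undated libraries are partners. Their pairing rests on a shared prefix in their labels. edgeR 4.0.16 and DESeq2 1.42.0 were alternatives. Peaks were counted at a start when within 1 kb of it; 24 members' starts came from RefSeq accessions in the authors' list and 14 from the gene's edge in the RNA table. The limma fits were tested on simulated counts for 13697 genes, 200 of them changed by 1 (log2): 198 were recovered in the dated fit, 198 with the block, 200 in the 6-library fit and 114 in the contrast of the undated with the KO1 pairs, with 5 to 7 false calls each. The simulated counts held no difference between pairs, and the lowest genes were left unchanged. In the real libraries 49.2% of tested genes differed in level between pairs. These recoveries therefore check the code and do not give the power of the fits on the real libraries. Counting intervals are 95% and cover counting error only.

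The 38 genes and all other lists were chosen with earlier results of these data known. Fitted changes are printed for UBR7, for members called in any of the 3 fits or the blocked dated fit, and for the largest dated change in each role group; the choice of RFC3 and POLE in the 6-library fit, of CDC6, and of genes with pair differences came after seeing values.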

Additional observations from a re-analysis of the deposited data

Results flagged for a closer look

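LIG1 was set apart because its change in the undated pair differed from its change in the KO1 pairs in a limma contrast. The undated side is 1 pair with no replicate, and the spread comes from the 2 KO1 pairs. The difference was 0.87 in log2 CPM + 1 (SE 0.21, adjusted p = 0.0153 by limma), and -0.15 without the pair terms (adjusted p = 0.942 by limma). The undated pair read 38.3 CPM in parental 3 and 61.1 CPM in the library labelled KO2-1, while the dated pairs read 96.3 and 74.3 CPM and 64.3 and 61.8 CPM. Parental 3 was the lowest of the 6 libraries, and the 3 UBR7KO libraries lay between 61.1 and 74.3 CPM. In the library labelled KO2-1 UBR7 itself stood at 64.5 CPM, above the parental libraries. The KO2 line has 1 RNA library, so the line and its pair cannot be told apart.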

How the results depend on the processing

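No member was called in the 6-library comparison under any of its 18 alternatives, and in 14 of 16 alternatives of the dated comparison; the exceptions, with 1 member (RFC3) each, were TMM factors and edgeR quasi-likelihood with the pairs as a replicate block. Genes called between KO1 and dated parental libraries rose from 0 to 491 with the replicate block, to 475 and 482 with the block under TMM factors and edgeR, and to 171 and 24 in DESeq2 with and without it. Leaving out a library gave 1 to 20 genes. The 6-library count became 4 with TMM factors and the block, 7 in DESeq2 and 38 in DESeq2 with the block, and 0 without each library in turn. The members' median dated change was -0.059 under TMM factors and -0.057 under DESeq2 size factors, -0.063 in edgeR, -0.067 in DESeq2, -0.060 and -0.064 in edgeR and DESeq2 with the block, 0.0055 after region centring, and -0.11 to 0.040 with a library left out. The 6-library median was -0.040 after region centring and -0.051 to 0.057 with a library left out. Directions of the dated change turned when a library was left out: ORC6 ran from -0.59 to 0.039, POLA2 from -0.54 to 0.15, LIG1 from -0.50 to 0.075, RRM1 from -0.096 to 0.33 and TIMELESS from -0.17 to 0.015; the positive values of ORC6, POLA2 and LIG1 came without parental 1. Without loss of direction, RFC3 ran from -0.62 to -0.20 in the dated and -0.38 to -0.093 in the 6-library comparison, and POLE from 0.087 to 0.38. Where an arm kept 1 library it was assumed to vary like the other arm. The fits with a library left out had no pair terms, so the level of the pair that lost a partner enters these changes and their signs. TIMELESS was 0.0072 without parental 1, and RRM1 -0.072 without parental 2 and -0.096 without KO1-1. For the undated against the KO1 pairs, the members' median of 0.066 was 0.11 with TMM factors and 0.12 in edgeR; without the pair terms it was -0.030, with 3 genes and 0 members called and LIG1 at -0.15. That comparison was not run with a library left out, since no residual degrees of freedom remain. The cause of these differences was not tested. With a −log10 q of at least 10, ATAC peaks remained at 0, 0, 0 and 1 member starts in parental 1 and 2 and UBR7KO 1 and 2. The same shares of tested genes were 0.460%, 0.285%, 0.175% and 2.07%. GFP-UBR7 peaks stood at 5 starts within 250 bases, 3 when the start had to lie inside the peak, and 4 among higher-scoring peaks. The shares of tested genes were 18.6%, 8.46% and 15.7% in the same order. Other ATAC windows and the 250-base promoter window stayed within 1.5 times of the counts given.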
